A study of Mus musculus with 10 samples.

Results

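Zfp36, Zfp36l1, Zfp36l2, Btg1 and Btg2 encode proteins that take part in message decay. Ier2, Ier3 and Ier5 are named for their immediate early response to a signal. The 8 genes were chosen by name. Each has 1 probe set among the 19938 genes that the array annotation names through a single-gene probe set. Their signals were read in neutrophils from the bone marrow of C57bl/6 mice, labelled as females 10 weeks old, on 10 Affymetrix arrays, and the study asks what lipocalin 2 (Lcn2, an iron-carrier-binding granule protein) does in resting and stimulated neutrophils. The 4 groups were Lcn2 knockout cells after fMLP (2 arrays), wild type cells after fMLP (2 arrays), unstimulated knockout cells (3 arrays) and unstimulated wild type cells (3 arrays). fMLP is a formylated peptide of the bacterial type that attracts and activates neutrophils, and the stimulated cells had 10 micromolar of it during 20 minutes of incubation, with the temperature at 37 degrees. All cells came from the layer between 81% and 62% Percoll after red cells had been lysed. The labels give neither the knockout allele, nor whether replicates were separate animals, nor whether unstimulated cells were also kept at 37 degrees, so differences between fMLP and unstimulated arrays cannot be assigned to the peptide alone, and p-values measure only the spread between these arrays.

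The lifetime of many inflammatory messages is set by AU-rich elements. ZFP36 (tristetraprolin) and its relatives ZFP36L1 and ZFP36L2 bind these elements through a pair of zinc fingers and bring in the CCR4-NOT complex, which shortens the poly(A) tail, after which the message is decapped or degraded by the exosome. BTG1 and BTG2 are anti-proliferative proteins that bind the deadenylase subunits of the same complex. The IER genes are named for their immediate early response: IER2 and IER5 are nuclear proteins, and IER3 is a survival regulator whose own message is a ZFP36 target. In myeloid cells Zfp36 is known as a restraint on cytokine output.

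The promoters of 6 of the 8 genes could be read from RefSeq (GRCm38.p6), from 250 bases before to 50 bases after the annotated start, and were searched on both strands for the sites of early transcription factors. The motifs were the cAMP response element TGACGTCA, the AP-1 site TGANTCA, the EGR site in the forms GCGTGGGCG and GCGGGGGCG, and the CArG box and NF-kB site by name. Shown are Zfp36l1 and Ier5, whose signal was higher on most fMLP arrays, and Zfp36 and Btg2, which hold early-factor motifs, as Zfp36l1 does. With all arrays none of the 8 genes passed the test given below. Btg1 and Ier3, not shown, were also higher on most fMLP arrays, and Ier3 holds a motif too. Capitals mark a motif, and no motif overlapped another.
Zfp36l1: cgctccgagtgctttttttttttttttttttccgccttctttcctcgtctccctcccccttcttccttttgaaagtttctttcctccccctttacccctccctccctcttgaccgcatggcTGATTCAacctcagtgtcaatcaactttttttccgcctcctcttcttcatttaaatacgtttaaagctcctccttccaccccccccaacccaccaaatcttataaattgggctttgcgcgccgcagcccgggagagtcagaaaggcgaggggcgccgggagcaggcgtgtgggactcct
Ier5: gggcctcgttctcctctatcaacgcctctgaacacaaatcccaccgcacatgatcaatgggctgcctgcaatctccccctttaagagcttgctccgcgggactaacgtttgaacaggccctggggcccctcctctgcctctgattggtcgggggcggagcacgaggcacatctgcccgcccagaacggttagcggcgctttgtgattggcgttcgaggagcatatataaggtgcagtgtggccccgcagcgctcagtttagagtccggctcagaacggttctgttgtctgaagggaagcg
Zfp36: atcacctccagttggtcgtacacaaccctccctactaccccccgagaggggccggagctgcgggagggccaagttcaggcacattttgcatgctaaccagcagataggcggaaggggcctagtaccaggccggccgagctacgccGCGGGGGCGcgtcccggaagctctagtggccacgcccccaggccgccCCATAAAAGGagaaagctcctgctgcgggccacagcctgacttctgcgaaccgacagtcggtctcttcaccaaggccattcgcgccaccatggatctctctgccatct
Btg2: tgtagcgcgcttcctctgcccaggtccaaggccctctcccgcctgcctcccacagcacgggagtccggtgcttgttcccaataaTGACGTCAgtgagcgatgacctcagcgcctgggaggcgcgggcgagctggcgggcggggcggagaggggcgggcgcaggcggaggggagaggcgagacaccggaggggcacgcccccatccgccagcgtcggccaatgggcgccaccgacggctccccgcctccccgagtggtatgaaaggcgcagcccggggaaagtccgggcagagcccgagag
The Zfp36l1 promoter (chr12:80112964-80113263, minus strand) holds an AP-1 site whose first base lies 129 bases upstream of the start, as do 7.81% of the 32851 promoters of this length. Ier5 (chr1:155099587-155099886, minus strand) holds none of the 5 motifs. Zfp36 (chr7:28379179-28379478, minus strand) holds an EGR site 105 bases upstream, found in 3.47% of promoters, and a CArG box 58 bases upstream, found in 1.63%. Btg2 (chr1:134079106-134079405, minus strand) holds a cAMP response element 166 bases upstream, found in 1.79%. Of the 2 not shown, Ier3 holds an NF-kB site 92 bases upstream, found in 4.51%, and Btg1 holds none. A match is a description of letters and shows no binding.

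In RefSeq GRCm38.p6 the genes lie apart, except that Zfp36l2 and Ier3 share chromosome 17, and Btg2 and Ier5 share chromosome 1. Zfp36 (Entrez gene 22695) spans bases 28376784 to 28379228 of chromosome 7. Zfp36l1 (12192) spans 80107760 to 80113013 of chromosome 12, and Zfp36l2 (12193) spans 84183924 to 84187947 of chromosome 17. Btg1 (12226) spans 96617001 to 96622813 of chromosome 10, and Btg2 (12227) spans 134074865 to 134079155 of chromosome 1. Ier2 (15936) spans 84661331 to 84662852 of chromosome 8, Ier3 (15937) spans 35821713 to 35822911 of chromosome 17, and Ier5 (15939) spans 155096367 to 155099636 of chromosome 1.

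The arrays must be read in 2 sets. Array set 2 holds all fMLP arrays and unstimulated replicate 3 of both genotypes, with interquartile ranges of signal (log2) between 2.47 and 2.59. Array set 1 holds unstimulated replicates 1 and 2, where these ranges were narrower, between 1.64 and 1.68. No fMLP array lies in set 1, so unstimulated replicate 3 of the same genotype is the first comparison below. Replicate 2 of the fMLP knockout cells stood apart: 6 neuron markers summed to 14.55 (log2) on it and to 9.84 to 9.99 on the other fMLP arrays, so the fMLP differences are also given without it. Some arrays go against the label of female mice, since the Y-linked Eif2s3y stood at 5.36 to 6.48 on the fMLP arrays, against 9.59 and 9.83 on unstimulated replicate 3 and 6.77 to 7.22 on set 1. Xist stood at 9.83 to 11.12 on the fMLP arrays and at 6.88 to 7.82 on the unstimulated arrays. The fMLP differences below therefore cannot be told apart from this difference in sex-linked genes between the arrays. Lcn2 itself stood at 8.09 to 9.60 on knockout arrays and at 13.88 to 14.16 on wild type arrays, where the place of its probe set relative to the deletion is not known. The 12 neutrophil markers summed to 16.77 to 17.23 on the fMLP arrays, 17.20 and 17.23 on unstimulated replicate 3, and 16.23 to 16.57 on set 1.

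Among unstimulated arrays alone, the 8 genes differed between the array sets. On the 4 unstimulated arrays of set 1 the signals were lower than on the 2 unstimulated arrays of set 2 by more than 1 (log2) for 7 genes, with a difference of -1.13 for Zfp36 and -1.66 for Zfp36l1. For Zfp36l2 the mean was 10.70 on set 1 and 12.45 on replicate 3. Ier3 differed least, with 9.12 on set 1 and 9.41 on replicate 3. The median over all 14070 tested genes differed by -0.09.

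**Figure D1:**
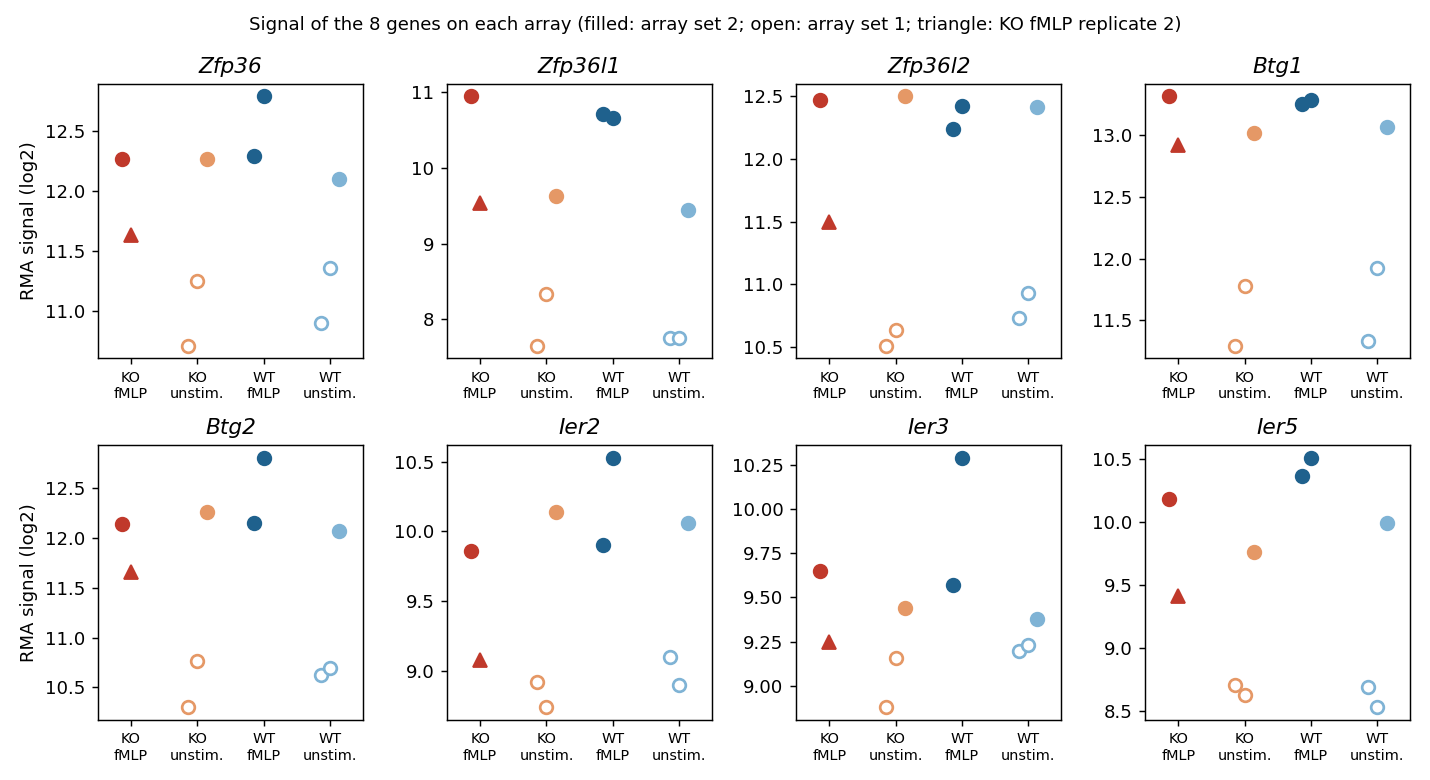
RMA signal (log2) of each gene on each of the 10 arrays, by group, 1 point per array; filled points are array set 2, open points array set 1, and the triangle is fMLP knockout replicate 2. For each of the 8 genes the open points lie below the filled unstimulated point of the same genotype, for example 7.75 and 7.75 against 9.44 for Zfp36l1 in wild type cells.

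Of the 3 Zfp36 family genes, Zfp36l1 had the widest difference after fMLP, on 3 of 4 arrays. It passed the test once either fMLP knockout array was left out, which takes the disagreement of these 2 arrays out of the spread. Without fMLP knockout replicate 1, Zfp36l1 rose by 0.58, averaged over genotype. Its signal was 10.95 and 9.54 in knockout cells after fMLP and 10.72 and 10.66 in wild type cells after fMLP, against 9.63 in knockout and 9.44 in wild type unstimulated replicate 3. The set 1 arrays gave 7.65 and 8.34 in knockout and 7.75 and 7.75 in wild type cells. The 3 fMLP arrays other than knockout replicate 2 lay 1.22 to 1.32 above replicate 3 of their genotype, and knockout replicate 2 lay between the unstimulated values of the 2 genotypes. In the limma fit of all 10 arrays with the array set as a term, the difference averaged over genotype was 0.93 (SE 0.35, 95% interval 0.13 to 1.74, adjusted p = 0.265). Within array set 2 alone it was also 0.93, so its unstimulated side is 1 replicate 3 array per genotype. The set 1 arrays add only to its spread, and the same holds without fMLP knockout replicate 2. With replicate 3 of either genotype left out of the 10 arrays, 0 genes were called by limma for the averaged difference. Without fMLP knockout replicate 2 Zfp36l1 rose by 1.29 (SE 0.17, limma adjusted p = 0.00186), by 1.30 in knockout cells (adjusted p = 0.0234) and by 1.27 in wild type cells (adjusted p = 0.00624). In that fit, here and below, the fMLP knockout cells are 1 array, so their values rest on it and on the spread of the other groups. The difference between the 2 responses was then 0.03 (95% interval -0.55 to 0.62).

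Summed markers of other cell types also differed between these arrays. In bulk samples a change in the share of cells cannot be told apart from a change in message per cell. On the 3 fMLP arrays where Zfp36l1 was higher, the 5 B cell markers summed to 13.98 to 14.28 (log2), against 13.37 and 13.78 on replicate 3, and the 6 T and NK cell markers to 11.08 to 11.78, against 10.28 and 10.48. The 4 erythroid markers summed to 13.48 to 13.73 on these 3 arrays, against 13.26 and 13.39 on replicate 3. The sums of these 3 lists were thus above both replicate 3 arrays wherever Zfp36l1 was. Not each marker was: the B cell marker Jchain stood at 8.70 to 9.97 on these 3 arrays, against 11.38 and 11.68 on replicate 3. On fMLP knockout replicate 2 the B cell sum (13.22) and the erythroid sum (12.69) lay below both replicate 3 arrays, and the T and NK cell sum was 10.72. Eosinophil, monocyte and basophil markers lay the other way: the 6 eosinophil markers summed to 10.68 to 11.56 on all 4 fMLP arrays, against 13.66 and 13.75 on replicate 3. The 7 monocyte and macrophage markers summed to 11.60 to 12.67, against 13.36 and 13.83, and the 5 basophil and mast cell markers to 9.76 to 10.41, against 11.19 and 11.41. RMA values have no 0, so no marker stood there. The part of these cell types in the differences of the 8 genes was not tested.

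Zfp36, the best known member of the family, and Zfp36l2 did not pass the test. It read 12.27 and 11.63 in knockout cells after fMLP and 12.29 and 12.79 in wild type cells after fMLP, against 12.27 in knockout and 12.10 in wild type replicate 3. Both wild type fMLP arrays were above their replicate 3, by 0.19 and 0.69, while the knockout arrays lay 0.00 and -0.64 from theirs. The averaged difference was 0.06 (SE 0.25, 95% interval -0.52 to 0.64), and 0.22 (-0.23 to 0.67) without fMLP knockout replicate 2. Zfp36l2 read 12.47 and 11.50 in knockout and 12.24 and 12.42 in wild type cells after fMLP, against 12.50 and 12.41 in replicate 3 of the 2 genotypes. Apart from knockout replicate 2, which was -1.0 from replicate 3, its fMLP arrays lay within 0.16 of replicate 3. The averaged difference was -0.30 (SE 0.24, 95% interval -0.85 to 0.26), and -0.05 (-0.32 to 0.21) without that array. Without fMLP knockout replicate 1 instead, Zfp36l2 fell by 0.54 (limma adjusted p = 0.00745, with 16.9% of all genes called lower), a value in which knockout replicate 2 alone stands for the fMLP knockout cells.

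The BTG genes did not pass the test in this comparison. Btg1 read 13.32 and 12.92 in knockout and 13.26 and 13.29 in wild type cells after fMLP, against 13.02 in knockout and 13.07 in wild type replicate 3. Its 3 fMLP arrays other than knockout replicate 2 were 0.19 to 0.30 above replicate 3, and the averaged difference was 0.15 (SE 0.20, 95% interval -0.31 to 0.62), or 0.25 (-0.15 to 0.65) without that array. Btg2 read 12.14 and 11.66 in knockout and 12.15 and 12.81 in wild type cells after fMLP, against 12.26 and 12.07 in replicate 3 of the 2 genotypes. The knockout arrays were -0.12 and -0.59 from replicate 3 and the wild type arrays 0.08 and 0.75, so the 2 genotypes lay on opposite sides. The averaged difference of Btg2 was 0.03 (SE 0.23, 95% interval -0.49 to 0.55), or 0.15 (-0.28 to 0.58) without fMLP knockout replicate 2.

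Among the IER genes, Ier5 was higher on 3 of 4 fMLP arrays by a small amount. Its signal was 10.18 and 9.41 in knockout and 10.36 and 10.51 in wild type cells after fMLP, against 9.76 in knockout and 9.99 in wild type replicate 3. Knockout replicate 2 lay -0.35 from its replicate 3, and the other fMLP arrays lay 0.37 to 0.52 above theirs. The averaged difference was 0.24 (SE 0.20, limma adjusted p = 0.632), and without knockout replicate 2 Ier5 rose by 0.43 (SE 0.11, adjusted p = 0.0353). By genotype, that fit gave 0.32 for the lone fMLP knockout array (adjusted p = 0.338) and 0.54 in wild type cells (adjusted p = 0.0385), with a difference between them of -0.22 (95% interval -0.60 to 0.16).

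Ier3 and Ier2 did not pass the test, and each had 1 wild type array well above the rest. Ier3 read 9.65 and 9.25 in knockout and 9.57 and 10.29 in wild type cells after fMLP, against 9.44 and 9.38 in replicate 3 of the 2 genotypes. Wild type replicate 2 was 0.91 above replicate 3, and the other 3 arrays lay -0.19 to 0.21 from it. The averaged difference of Ier3 was 0.28 (SE 0.21, 95% interval -0.20 to 0.76), or 0.38 (-0.03 to 0.79) without fMLP knockout replicate 2. Ier2 read 9.86 and 9.08 in knockout and 9.90 and 10.53 in wild type cells after fMLP, against 10.14 and 10.06 in replicate 3. Only wild type replicate 2 was above replicate 3, by 0.47, and knockout replicate 2 was -1.06 from it. The averaged difference of Ier2 was -0.25 (SE 0.24, 95% interval -0.81 to 0.31), and -0.06 (-0.43 to 0.32) without that knockout array.

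**Figure D2:**
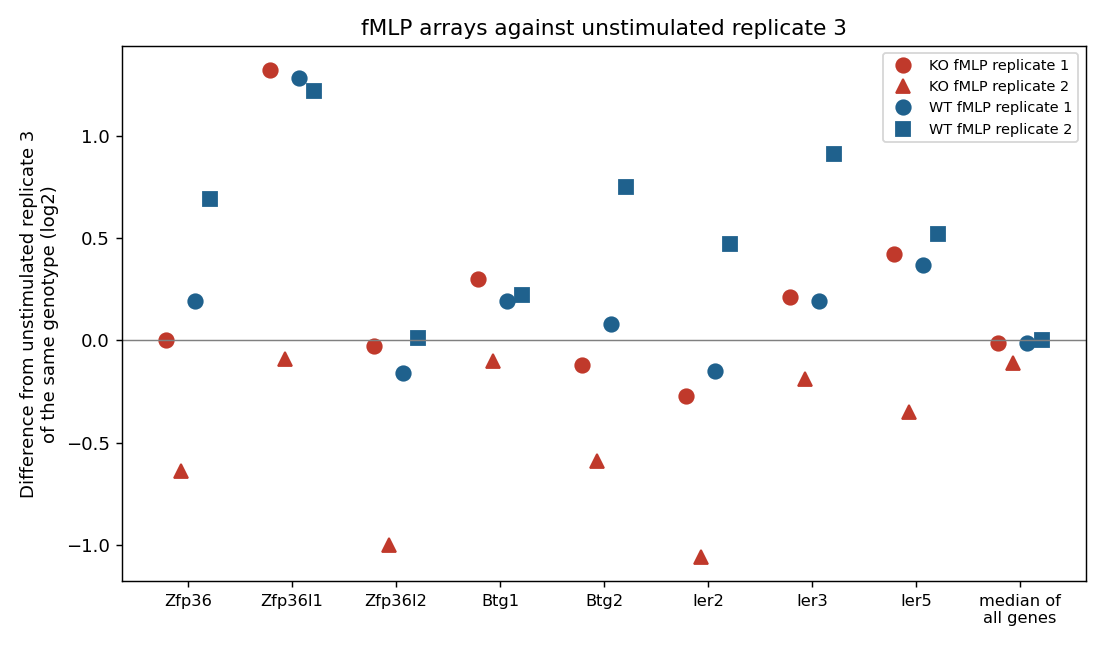
Difference of each fMLP array from unstimulated replicate 3 of the same genotype (log2), 1 symbol per array, for the 8 genes and for the median of all 14070 tested genes. Zfp36l1 lies 1.22 to 1.32 above 0 on 3 arrays, and the triangle of fMLP knockout replicate 2 is the lowest symbol for each of the 8 genes.

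All 8 genes passed the filter on low signal, each through both unstimulated replicate 3 arrays as well as fMLP arrays. In the fit of all arrays 0 of the 8 were called by limma for fMLP averaged over genotype (1 had an unadjusted p below 0.05, as had 14.6% of all genes), where 0.341% of all tested genes were called. Their median difference was 0.11, against -0.02 for all tested genes. Without fMLP knockout replicate 2, Zfp36l1 and Ier5 were called higher, 2 of 8, where 6.36% of tested genes were called higher and 3.79% lower, and the medians were 0.24 for the 8 and -0.01 for all genes. By genotype, 2 of 8 were then called higher in wild type cells (3.47% of all genes) and 1 from the lone fMLP knockout array (1.39% of all genes). With all arrays, neither genotype had a member called by limma. At an unadjusted p below 0.05 there were 0 in knockout cells, where 14.7% of all genes reached it, and 1 in wild type cells, where 8.05% did. At the adjusted threshold 0.0853% of all genes were called in knockout cells (0.0284% higher, 0.0569% lower) and 0.0782% in wild type cells (0.0426% higher, 0.0355% lower).

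The values of these genes changed with the unstimulated arrays used. With no term for the array set the median of the 8 was 0.97, with 8 of 8 above 0, and 0 were called by limma (5 at an unadjusted p below 0.05, as were 35.8% of all genes) where 0.0711% of all genes were called; the median of all genes was then 0.12. When the replicate number was used as a block in place of the set, fMLP arrays were set against set 1 arrays of the same number. Then 8 of 8 were called higher by limma with differences of 0.57 to 2.6, but so were 46.2% of all genes, and 37.3% were called lower. Zfp36l2 and Ier2 changed sign between these fits and the fit with the array set (0.87 and 0.53 with no set term, 1.46 and 0.93 with the replicate block).

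**Figure D3:**
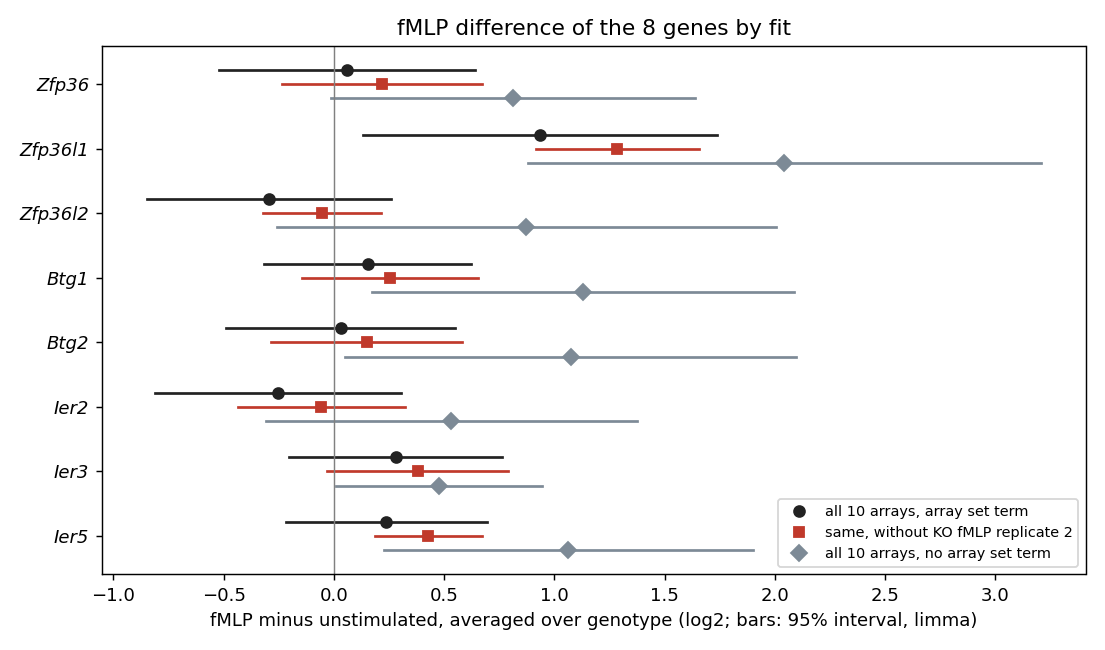
Difference between fMLP and unstimulated arrays averaged over genotype (log2) for each gene from 3 limma fits, with 95% intervals. Without the array set term each of the 8 values lies to the right of that with it, such as 1.07 against 0.03 for Btg2.

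None of the 8 genes passed a test between genotypes with all arrays. The size of the differences after fMLP turned on which fMLP array was left out, in either genotype. In unstimulated cells the knockout minus wild type differences ran from -0.14 for Zfp36l2 to 0.23 for Zfp36l1, and 0 of 8 were called by limma (0 at an unadjusted p below 0.05), where 0.00711% of all genes were called. The 95% interval for Zfp36l1 was -0.53 to 0.99 and that for Ier5 -0.46 to 0.39. After fMLP the 8 knockout minus wild type differences were all below 0, with a median of -0.53 against -0.05 for all genes, and 0 were called by limma (2 at an unadjusted p below 0.05, Ier5 at -0.64 and Ier2 at -0.75, as had 8.4% of all genes), with 0.00711% of all genes called. Without fMLP knockout replicate 2 the median was -0.26, against -0.0046 for all genes, and 3 of 8 were above 0, as were 48.5% of all genes. With replicate 2 kept and fMLP knockout replicate 1 left out, the median was -0.87 and 7 of 8 were called lower, Btg1 being the exception, where 31.3% of all genes were called lower. Each of these values rests on 1 fMLP knockout array, whose spread is assumed to be that of the other groups. With 1 wild type fMLP array left out instead, the median was -0.77 without replicate 1 and -0.30 without replicate 2. In both cases 0 of 8 were above 0. For the difference between the fMLP responses, 0 of 8 and 0% of all genes were called by limma (0 of 8 at an unadjusted p below 0.05). Its median over the 8 was -0.56 with all arrays, -0.70 without wild type fMLP replicate 1 and -0.27 without wild type fMLP replicate 2. That difference ran from -0.67 for Zfp36l1 to -0.08 for Btg1 with all arrays, and from -0.33 for Btg2 to 0.27 for Zfp36l2 without fMLP knockout replicate 2. It was called lower without fMLP knockout replicate 1 for 4 of 8 (Zfp36l1, Zfp36l2, Ier2 and Ier5), where 24% of all genes were called lower.

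On fMLP knockout replicate 2 the signal of all 8 genes lay below their mean over the remaining 3 fMLP arrays, from -0.37 for Btg1 to -1.24 for Zfp36l1, with a median of -0.85. The same deviation was -0.45 for the median of the 12 neutrophil markers, 4.41 for the 6 neuron markers and -0.11 for all tested genes. The part of this array's neuron signal in the knockout values was not tested.

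The genes did not move as one across arrays. Over the 9 arrays without fMLP knockout replicate 2, with each value centred on the mean of its array set, Pearson correlations were highest for Btg2 with Ier3 (0.92) and for Zfp36 with Btg2 (0.91). They were 0.84 for Zfp36 with Ier3, 0.68 for Zfp36l1 with Ier5, -0.20 for Zfp36l1 with Zfp36l2 and -0.46 for Zfp36l2 with Ier5. These are descriptions over 9 points that share arrays and array sets. Wild type fMLP replicate 2 lay above unstimulated replicate 3 by 0.69 for Zfp36, 0.75 for Btg2 and 0.91 for Ier3. Wild type fMLP replicate 1 lay above it by 0.19, 0.08 and 0.19. The part of this 1 high array in the correlations of these genes was not tested. By the same measure Zfp36l1 was most like Tpd52l2 (0.981) and Lrrc8c (0.977), Zfp36 like Ccng2 (0.976) and Fosl2 (0.940), and Zfp36l2 like Sctr (0.938) and Sec61a1 (0.933). Btg1 was most like Msrb1 (0.982) and Samsn1 (0.979), and Btg2 like Adss (0.932) and Fbxo30 (0.931). Ier5 was most like Mroh2a (0.988) and Tmem43 (0.976), Ier3 like Dmwd (0.953) and Tmed5 (0.948), and Ier2 like Itpka (0.910) and Tspan2 (0.903). For each member the 2 genes were picked as the highest among all tested genes, predicted genes left out, so high values follow in part from the picking. With all 10 arrays Zfp36 with Ccng2 was at 0.986 and Ier5 with Mroh2a at 0.985. By contrast, Zfp36l1 with Tpd52l2 was at 0.135 and Ier2 with Itpka at -0.637. Zfp36l2 with Sctr was then at -0.378 and Ier3 with Dmwd at 0.122.

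Of 47 tested genes of the decay machinery and other RNA-binding proteins, 4 were called without fMLP knockout replicate 2 (8.51%), near the 10.1% of all genes, and 0 were called by limma with all arrays. At an unadjusted p below 0.05 the shares of all genes were 14.6% with all arrays and 24.2% without that array. Of 15 deadenylation genes (CCR4-NOT subunits, Pan2, Pan3, Parn and Pabpc1), 0 were called by limma with all arrays (3 had an unadjusted p below 0.05). Their median was -0.25 with all arrays and -0.13 without fMLP knockout replicate 2. The scaffold gene Cnot1 was at -0.48 and -0.32 in the 2 fits and Cnot11 at -0.35 and -0.31. Of 12 decapping genes 0 were called by limma with all arrays (3 at an unadjusted p below 0.05), and without knockout replicate 2 Pnrc1, a decapping cofactor, rose by 0.73 (limma adjusted p = 0.00372) and Xrn1, the exonuclease that degrades decapped messages, fell by 0.41 (adjusted p = 0.0259). Of 10 exosome genes tested 0 were called by limma in either fit (0 at an unadjusted p below 0.05 in each), with Exosc8 at -0.33 and -0.21. Of 10 other RNA-binding genes 0 were called by limma with all arrays (2 at an unadjusted p below 0.05). Without that array Hnrnpd, which encodes the AU-rich binding protein AUF1, fell by 0.51 (adjusted p = 0.0152), and Zc3h12a, an endonuclease gene, rose by 0.40 (adjusted p = 0.0309). Elavl1, which encodes the stabilising protein HuR, was at -0.33 and -0.34.

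Kinase pathway genes, ZFP36 target messages and other feedback genes are given beside the shares of all genes called higher, 0.149% with all arrays and 6.36% without fMLP knockout replicate 2. Of 11 genes of the p38 and ERK pathways that act on ZFP36 proteins, 0 were called by limma with all arrays (3 at an unadjusted p below 0.05). Without fMLP knockout replicate 2, 3 rose: Dusp1, a phosphatase gene, by 1.36 (limma adjusted p = 0.0178), Ywhab by 0.40 and Mapkapk2, a kinase that phosphorylates ZFP36, by 0.36. Of 16 messages known as ZFP36 targets, all on the array, 12 passed the filter on low signal and were tested. Of these 12, 11 were above 0 in both fits, as were 45.8% and 47.3% of all genes. Their medians were 0.66 and 0.69, against -0.02 and -0.01 for all genes. With all arrays 6 had an unadjusted limma p below 0.05, as had 14.6% of all genes, and within array set 2 alone 0 were called. Plk3, a polo-like kinase gene, was called with all arrays at 1.66 (adjusted p = 0.0317). Plk3 (1.80), the chemokine genes Ccl3 (2.11) and Cxcl2 (1.52), Fos (1.29) and Vegfa (0.47) rose without knockout replicate 2. Of 25 early feedback inhibitor genes, 2 rose with all arrays, Atf3 by 2.32 and Dusp5 by 1.6, and 13 rose without that array. Among the 13, Tnfaip3, the gene of the NF-kB inhibitor A20, rose by 1.54 (adjusted p = 1.9e-05), Klf2 by 0.95 and Nfkbid by 1.70, and Dusp1 stands in this list too. The 4 tested relatives of the BTG and IER genes had 0 called in either fit (0 at an unadjusted p below 0.05), with Ier5l at 0.18 and 0.11. The differences of the lists were not tested against the 8 genes.

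**Figure D4:**
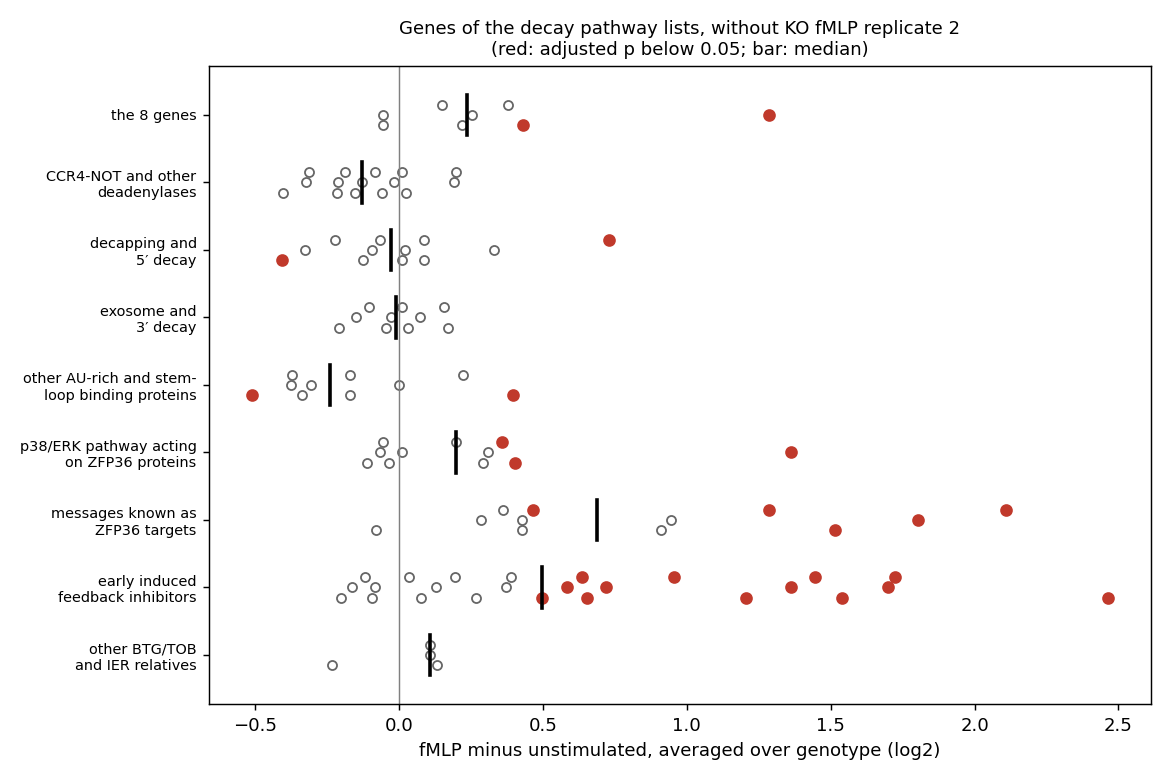
Difference between fMLP and unstimulated arrays averaged over genotype (log2), without fMLP knockout replicate 2, for the 8 genes and 8 lists of related genes, 1 point per gene; red points have a limma adjusted p below 0.05 and bars are medians. The medians are 0.24 for the 8 genes, -0.13 for CCR4-NOT and the other deadenylation genes and 0.69 for the ZFP36 target messages.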

How the data were processed

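Values are RMA signals per probe set, which the authors computed with Affymetrix Expression Console per the submitters' processing notes; the deposited values were taken as log2 from their range (3.91 to 14.81), as no source used here names the base. The RMA method corrects background and makes the distributions of arrays processed together alike; whether all arrays shared a run is not given in the sources used here. Of 35556 probe sets, 21789 name 1 gene, 1621 several and 12146 none. The probe set with the highest mean stood for each gene, and genes with at least 2 arrays above the median (8.18) were tested, 14070 in all. limma version 3.58.1 in R version 4.3.3 fitted all 10 arrays with a coefficient per group and the array set (interquartile range below or above 2) as a term, with 5 residual degrees of freedom, two-sided tests, and Benjamini-Hochberg adjustment over all tested genes, called below 0.05. The number of arrays limits the precision. The fit was tested on simulated data.

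The 8 genes, the lists, the array set term and the alternatives were chosen with earlier results of these data known. Named genes were the 8, Lcn2, per list the called genes (at most 6, or the 2 with the smallest p, in the fit with all arrays), and per member the 2 genes most like it, predicted genes left out; the genes called without fMLP knockout replicate 2 were added after their values were seen. Same-numbered unstimulated arrays deviated together (correlations 0.929 to 0.988, mostly the array sets, and 0.464 for the replicate 1 minus 2 differences within set 1). Same-numbered fMLP and unstimulated arrays did not all do so (-0.41 to 0.37). Whether the numbers pair the unstimulated arrays is not settled by these values, and the fit with all arrays used no pairing within set 1.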

Additional observations from a re-analysis of the deposited data

Results flagged for a closer look

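The fMLP response of Btg2 was lower in knockout than in wild type cells, with a difference of -0.57 (log2). With all arrays this was not particular to Btg2, as the difference was below 0 for all 8 genes, where 39.1% of all tested genes were above 0. The median was -0.56 for the 8, against -0.07 for all tested genes. Without fMLP knockout replicate 2 the median of the 8 was -0.19, against -0.01 for all tested genes. Then 3 of 8 were above 0, as were 48.4% of all tested genes, and Btg2 was the lowest of the 8. Btg2 drew attention because both knockout arrays lay below unstimulated replicate 3 of their genotype (-0.12 and -0.59). Both wild type arrays lay above theirs (0.08 and 0.75). limma's test of the difference did not pass (SE 0.34, adjusted p = 0.776), and without fMLP knockout replicate 2 the difference was -0.33 and did not pass either.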

How the results depend on the processing

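Counts of genes called depended on how the array sets were treated and on single arrays. For fMLP averaged over genotype the count was 48 with all arrays, 10 with no array set term, 0 within array set 2 (limma, 886 at an unadjusted p below 0.05), 11758 with the replicate block, 77 with trend and robust moderation, and 0 to 4055 leaving out 1 array. A fit within array set 2 and without fMLP knockout replicate 2 was chosen after seeing the data. Its spread came only from the pair of wild type fMLP arrays (1 residual degree of freedom), each other group being 1 array. In that fit the count was 3119 of all 14070 tested genes, with Zfp36l1 (1.29), Btg1 (0.25) and Ier5 (0.43) among them. For fMLP in wild type cells it was 11 with all arrays, 1 with no set term, 0 within set 2, 11384 with the replicate block, 20 with trend and robust moderation, and 0 to 724 leaving out 1 array; in knockout cells it was 12, and 1, 0, 10444, 20 and 0 to 5429, with 4 after quantile normalization. For knockout against wild type it was 1 in unstimulated cells, 0 within set 2, and 0 to 1 leaving out 1 array. After fMLP it was 1, 0 within set 2, 0 with the replicate block, and 0 to 6401. For the difference of the responses it was 0, and 0 to 4924 leaving out 1 array. The genes called without fMLP knockout replicate 1 included 7 of the 8 for knockout against wild type after fMLP and 4 of the 8 for the difference of the responses. The high ends came without fMLP knockout replicate 1 or 2, which by construction leaves 1 fMLP knockout array and takes the disagreement of these 2 arrays out of the spread. With the replicate block Zfp36l2 (1.46) and Ier2 (0.93) reversed, as they did with no set term (0.87 and 0.53), and all 8 genes were called higher with the block. Leaving out 1 array, Zfp36 ranged from -0.10 to 0.22 and Btg2 from -0.14 to 0.20, so that their signs are not settled; the cause was not tested. Zfp36l1 ranged from 0.58 to 1.29, Ier5 from 0.05 to 0.43, Btg1 from 0.05 to 0.25, Ier3 from 0.10 to 0.46, Ier2 from -0.45 to -0.06 and Zfp36l2 from -0.54 to -0.05. Under quantile normalization, median centring, both filters, every probe set as its own row, and trend and robust moderation, the 8 genes kept their direction and none was called.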
